A study of Mus musculus with 6 samples.

Results

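The genes described here are 6 that build or regulate the dynein motors and the primary cilium: Dync1i1, Dctn3, Dync2h1, Invs, Anks6 and Tmem67. They were taken by gene name from 53546 features in the RNA sequencing counts of 6 mouse libraries. All samples were of strain C57BL/6, and 3 libraries are labelled control and 3 spinal cord injury. Their tissue is labelled spinal cord in one field and intervertebral disc in another, while the series text speaks of retina and of mice 21 days old. How the injury was made and the time after it are not given in the sources used here, and whether each library is a separate animal is not labelled. The spread behind the p-values is that between libraries and may be technical only.

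Cytoplasmic dynein is the motor that carries cargo towards the minus ends of microtubules, and in neurons it brings organelles and signals from the axon back to the cell body. It works with dynactin, a large complex that links it to cargo. A second dynein runs inside cilia and returns transport trains from the tip to the base. The primary cilium is an antenna of the cell surface with a gate at its base, the transition zone, and a proximal stretch called the inversin compartment. Neurons, astrocytes and kidney tubule cells carry such cilia, and defects of their proteins are known for cystic kidneys.

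Libraries of 1 label did not look alike. Total counts ran from 2385703 to 3921627 per library. Name-stable means here that at least 90% of the exonic bases in the files lie on exons of the same gene in GENCODE M21 (GRCm38), and 1755 features (3.28%) met this. Controls 1 and 2 stood apart from control 3 and from the injury libraries. The 3 name-stable neuron markers of 12 listed (Gabbr2, Frrs1l and Lingo2) summed to 5.13 and 1.53 CPM in controls 1 and 2 and to between 1993 and 2256 CPM in the other 4 libraries, where CPM is counts per 1000000 of the library total. The 4 name-stable kidney tubule markers of 11 (Slc13a1, Slc7a13, Aqp3 and Atp6v0d2) summed to 2333 and 1666 CPM in controls 1 and 2 and to between 1.68 and 4.97 CPM in the others, where Slc7a13 and Aqp3 had 0 counts. The single name-stable markers of astrocytes (Ptprz1) and oligodendrocytes (Gpr37) stood at or below 10.5 CPM in controls 1 and 2 and at or above 954 CPM elsewhere. The marker lists were chosen with earlier results of these data known, so these sums describe the split and are no separate test of it. None of the 7 disc and cartilage markers was name-stable, so the disc label could not be checked. The part of these differences in the results below was not tested. Levels are therefore given per library, and tests with all 6 libraries, without control 3 and without controls 1 and 2.

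The 6 names hold in these files. Each gene has 100% of its exonic bases on its own exons in GRCm38, and every merged exon block has the same start and end there, from 7 of 7 blocks in Dctn3 to 91 of 91 in Dync2h1. Dync1i1 lies on chromosome 6 from 5725639 to 6028039 on the plus strand. Dync2h1 lies on chromosome 9 from 6928503 to 7184446 on the minus strand. The other four lie on chromosome 4. Dctn3 runs from 41714798 to 41723170, Anks6 from 47015669 to 47057427 and Tmem67 from 12039355 to 12090020, all on the minus strand, and Invs runs from 48279760 to 48431954 on the plus strand. Invs shares 1.98% of its exonic bases with exons of Tex10, and Tmem67 shares 5.42% with Rbm12b2 and Gm11842. Pairs that overlap both genes were left uncounted. The other four share none.

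The RefSeq promoter windows (250 bases before to 50 after a start, GRCm38.p6) hold 4 of the 6 genes: Dync1i1, Dctn3, Dync2h1 and Invs. The stretches before the start are printed for Dync1i1 and Dctn3, the pair whose CPM spanned the widest ratios between libraries, without any base of a GENCODE exon. Capitals mark matches to an X-box, the motif of RFX factors that drive many cilium genes, to a cyclic AMP response element (TGACGTCA) and to a CCAAT box, each searched on both strands. The X-box was searched as 14 letters in a looser form with 7 of them fixed and a stricter form with 9 fixed. The Dctn3 stretch is chr4:41723171-41723413, minus strand, and the Dync1i1 stretch is chr6:5725389-5725638, plus strand.
Dctn3: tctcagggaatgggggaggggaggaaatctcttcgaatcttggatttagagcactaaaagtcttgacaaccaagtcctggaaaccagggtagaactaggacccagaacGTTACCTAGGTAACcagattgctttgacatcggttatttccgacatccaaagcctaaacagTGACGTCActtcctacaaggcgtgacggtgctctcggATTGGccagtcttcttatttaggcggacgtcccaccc
Dync1i1: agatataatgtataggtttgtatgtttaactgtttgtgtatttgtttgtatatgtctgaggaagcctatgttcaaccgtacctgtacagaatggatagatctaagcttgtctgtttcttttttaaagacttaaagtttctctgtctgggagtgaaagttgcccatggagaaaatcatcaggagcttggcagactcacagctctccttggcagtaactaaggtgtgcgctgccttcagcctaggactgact

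The Dctn3 window held 1 match to the X-box, from position -142 to -129 counted from the start, with the letters GTTACCTAGGTAAC. It met both forms, and the stricter is a subset of the looser. Of 32851 windows of the same length in the table, 4.62% held the looser and 0.804% the stricter form. The Dync2h1 window held 1 match to the looser form, GTCGCCATAGCGAC, from 16 to 29 bases after the RefSeq start and inside a GENCODE exon of Dync2h1 (chr9:7177030-7177043). The files begin Dync2h1 further upstream, at 7184446. Dync1i1 and Invs held no match to the X-box in these windows. The cyclic AMP element in Dctn3 had a background of 1.79%, and the CCAAT box, present in Dctn3, Dync2h1 and Invs, one of 37.4%. The CCAAT match of Dync2h1, from -70 to -66, lay on a GENCODE exon of Dync2h1. That of Invs, from -3 to 2, spanned the start and reached a GENCODE exon of Invs. No window of these genes held an SP1 GC box (GGGCGG, 35.7% of all windows) or an NRF1 motif (0.971%). The Dync1i1 window holds 6 CpG dinucleotides against 15 in Dctn3, 12 in Dync2h1 and 25 in Invs, and the median over all windows is 7. Letters that match are a description and show no binding, and the forms of the motifs were written after these windows had been seen.

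Dync1i1 encodes an intermediate chain of dynein that is rich in neurons and binds dynactin. It was nearly missing from controls 1 and 2 and abundant in all other libraries. Its 8 and 11 counts in controls 1 and 2 gave 2.05 and 2.80 CPM. Control 3 held 710.5 CPM, and injury 1, 2 and 3 held 735, 769 and 850.1 CPM. The injury mean of 785 ± 59.1 CPM (SD, n = 3) was 382.2 times control 1 and 279.8 times control 2. Control 3 stood just below the lowest injury library, so the groups did not overlap by CPM. The controls, with 2 libraries near 0 and 1 near the injury level, gave 238 ± 409 CPM (SD, n = 3).

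Dctn3, a subunit of the shoulder of dynactin, had the same pattern over a much smaller range. It stood at 46.2 and 38.8 CPM in controls 1 and 2 and at 194 CPM in control 3. Injury 1, 2 and 3 held 217, 229 and 238 CPM, a mean of 228 ± 10.3 CPM (SD, n = 3). The injury mean was 4.94 times control 1 and 5.89 times control 2. Here too every injury library was above every control. In these bulk samples, fewer cells of a type and less RNA per cell cannot be told apart.

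Groups that do not overlap were common in these files. Over the 12646 tested features, 39.2% did not overlap between the 3 injury and 3 control libraries by CPM, 13.7% with higher and 25.4% with lower values after injury. Among the 461 name-stable features tested, 24.5% did not overlap with higher values. Among the 6 genes, 2 had this pattern, both higher.

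Dync2h1, the heavy chain of the dynein that runs inside cilia, was abundant in every library. It had 352 CPM in control 1, 708 CPM in control 2 and 799.6 CPM in control 3. The injury libraries held 665, 778 and 687 CPM (mean 709.9 ± 59.9 CPM, SD, n = 3). Control 2 lay within the injury range and control 3 just above it. Control 1 was the low library by CPM, with an injury mean 2.02 times its level. On other scales, given further below, controls 1 and 2 both lay under all other libraries. The groups overlapped.

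**Figure D1:**
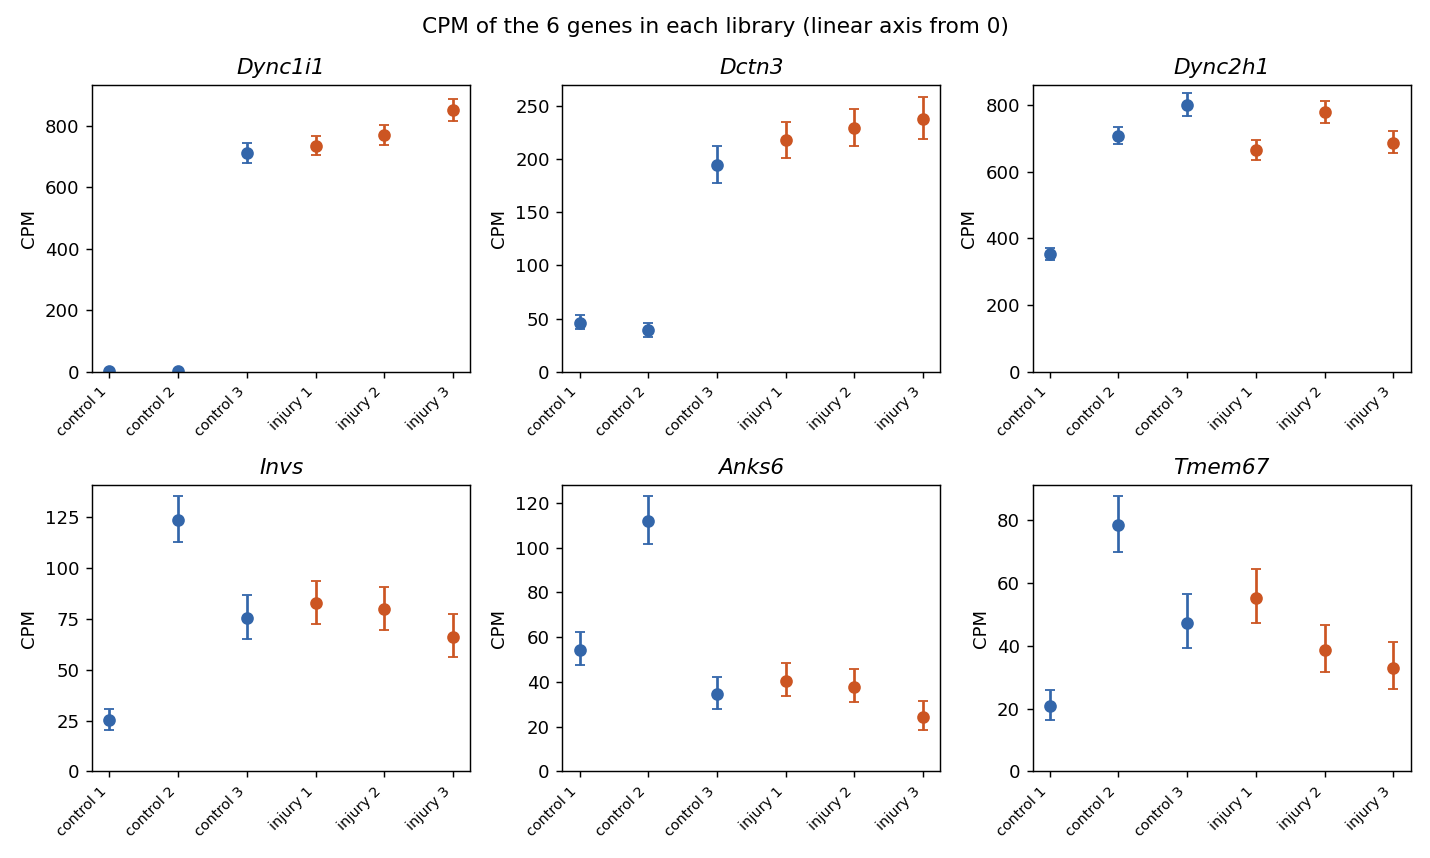
CPM of each gene (vertical axes, linear from 0) in the 3 control libraries (blue) and the 3 injury libraries (orange), with exact 95% Poisson intervals that cover counting error only. Dync1i1 stands at 2.05 and 2.80 CPM in controls 1 and 2 and above 700 CPM elsewhere, while Invs, Anks6 and Tmem67 each have their highest value in control 2.

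Invs and Anks6 encode ankyrin repeat proteins of the inversin compartment, and mutations of either are known for cystic kidneys. Invs had 25.2 CPM in control 1 and 124 CPM in control 2. Control 3 held 75.3 CPM, inside the injury range of 66.2 to 82.6 CPM (82.6, 79.7 and 66.2 CPM in injury 1, 2 and 3). The lowest and the highest library for Invs were thus both controls. The injury mean of 76.2 ± 8.74 CPM differed from the control mean of 74.7 ± 49.3 CPM (SD, n = 3 each) by far less than the spread between controls.

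Anks6 was the 1 gene of the 6 with both controls 1 and 2 above all other libraries. It had 54.4 and 112 CPM there and 34.4 CPM in control 3. Injury 1, 2 and 3 held 40.6, 37.9 and 24.3 CPM, a mean of 34.3 ± 8.74 CPM (SD, n = 3). Control 3 lay within the injury range, so the groups overlapped.

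Tmem67 encodes meckelin, a membrane protein of the transition zone. Controls 1, 2 and 3 held 20.8, 78.5 and 47.4 CPM, and injury 1, 2 and 3 held 55.4, 38.6 and 33.1 CPM. Like Invs, it was lowest in control 1 and highest in control 2, with control 3 inside the injury range. The injury libraries differed among themselves beyond counting error: the exact 95% Poisson interval was 47.2 to 64.7 CPM in injury 1 and 26.2 to 41.3 CPM in injury 3.

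Controls 1 and 2, though alike in their low Dync1i1, differed from each other in the cilium genes. Control 2 held 4.92 times the CPM of control 1 for Invs (exact 95% interval 3.95 to 6.17), 3.78 times for Tmem67 (2.95 to 4.89), 2.06 times for Anks6 (1.74 to 2.44) and 2.01 times for Dync2h1 (1.89 to 2.15). For Dctn3 the ratio was 0.839 (0.672 to 1.05) and for Dync1i1 1.37 (0.501 to 3.91), both with intervals that include 1. These intervals compare 2 libraries, hold for total counts and cover counting error only. TMM factors scale libraries by the trimmed mean of their log ratios. With them the ratios were 3.36, 2.58, 1.41 and 1.38 for Invs, Tmem67, Anks6 and Dync2h1, and 0.574 and 0.934 for Dctn3 and Dync1i1. Dctn3 thus lay further from 1 than with total counts, and Anks6 and Dync2h1 nearer to it. Which genes lay near 1 therefore depended on the scaling. The contrast of Dctn3 with the cilium genes did not, since scaling changes the ratio of every gene by the same factor.

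The design sets spinal cord injury against control. Of the 6 genes 0 passed an adjusted p of 0.05 with all 6 libraries, against 0% of 12646 tested features (edgeR quasi-likelihood test, Benjamini-Hochberg adjustment over all features). In this fit 0 of the 6 had an unadjusted p under 0.05, which 3245 features had. Other fits of the 6 libraries gave Dctn3 an unadjusted p of 0.0492 (DESeq2), 0.0244 (limma-voom), 0.0456 (edgeR with no filter) and 0.0378 (edgeR with a replicate block). Dync1i1 had an unadjusted p of 0.0154 by limma-voom, and Anks6 one of 0.0357 by edgeR among name-stable features alone. None of these passed after adjustment, and an unadjusted p under 0.05 was common in these fits. Of 12646 features, 3441 had it by DESeq2, 3887 by limma-voom and 2655 with the replicate block. With no filter 5847 of 34980 features had it, and among name-stable features alone 86 of 461. DESeq2 called 0 of the 6 against 11.9% of all tested and 4.77% of name-stable features, and limma-voom called 0 against 0%. With sample quality weights, limma-voom called 3 of the 6, 2 higher and 1 lower, against 55.7% of features in either direction, 27.1% higher and 28.6% lower. The log2 fold change of injury over control was 1.87 (SE 1.93, edgeR adjusted p 0.505) for Dync1i1 and 1.44 (SE 0.69, edgeR adjusted p 0.236) for Dctn3. It was 0.39 (SE 0.43) for Dync2h1, 0.29 (SE 0.47) for Invs, -0.75 (SE 0.44) for Anks6 and 0.04 (SE 0.43) for Tmem67, with edgeR adjusted p of 0.526, 0.666, 0.293 and 0.955. The size for Dync1i1 depended on the fit. It was 1.93 by DESeq2, 6.14 (SE 1.93) by limma-voom and 6.72 (SE 2.65) by edgeR with a replicate block. Anks6 was at -1.67 (SE 0.62) when name-stable features alone were fitted. The median of the 6 was 0.34, against -0.04 over all features tested and 0.65 over the name-stable ones.

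Without control 3, the injury libraries were set against controls 1 and 2. Both genes of the cytoplasmic motor and the ciliary heavy chain then passed as higher in the injury libraries, 3 of 6 genes, against 66.8% of 15320 features called in either direction and 30.2% called higher. Dync1i1 had a log2 fold change of 8.82 (SE 0.37, edgeR adjusted p 8.98e-05), Dctn3 one of 2.87 (SE 0.33, adjusted p 7.06e-04) and Dync2h1 one of 0.98 (SE 0.27, adjusted p 0.0164). Anks6 (-0.72, SE 0.29, edgeR adjusted p 0.0635), Invs (0.68, SE 0.48, adjusted p 0.240) and Tmem67 (0.39, SE 0.43, adjusted p 0.450) did not pass. Of the 518 name-stable features, 72.6% were called in either direction and 53.5% higher, so the share of the 6 is near or under the background.

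The calls on Dync2h1 and Anks6 in that comparison turned on the scaling. With total counts in place of TMM factors, an alternative added after seeing the data, Dync2h1 had a log2 fold change of 0.40 and did not pass (edgeR adjusted p 0.324), while Anks6 passed as lower with -1.30 (adjusted p 0.0243). In that fit 3 of the 6 passed against 64.2% of all features, 21.4% higher and 42.8% lower. The median over all features moved from -0.20 to -0.75 between these scalings. Relative to that median the fold change of Anks6 was nearly the same in both. Dync1i1 and Dctn3 passed as higher under either scaling, at 8.29 and 2.41 with total counts.

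Without controls 1 and 2, control 3 alone stood against the injury libraries and is assumed to vary as they do. None of the 6 genes passed, against 6.78% of 13857 features. The log2 fold changes were 0.27 (SE 0.17) for Dync1i1, 0.36 (SE 0.17) for Dctn3, -0.05 (SE 0.16) for Dync2h1, 0.14 (SE 0.18) for Invs, 0.12 (SE 0.25) for Anks6 and -0.04 (SE 0.23) for Tmem67. The edgeR adjusted p ran from 0.190 for Dctn3 to 0.931 for Tmem67. A difference between injury and control 3 was thus not detectable here for any of them, and the largest of these fold changes, that of Dctn3, is about 2 SE.

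**Figure D2:**
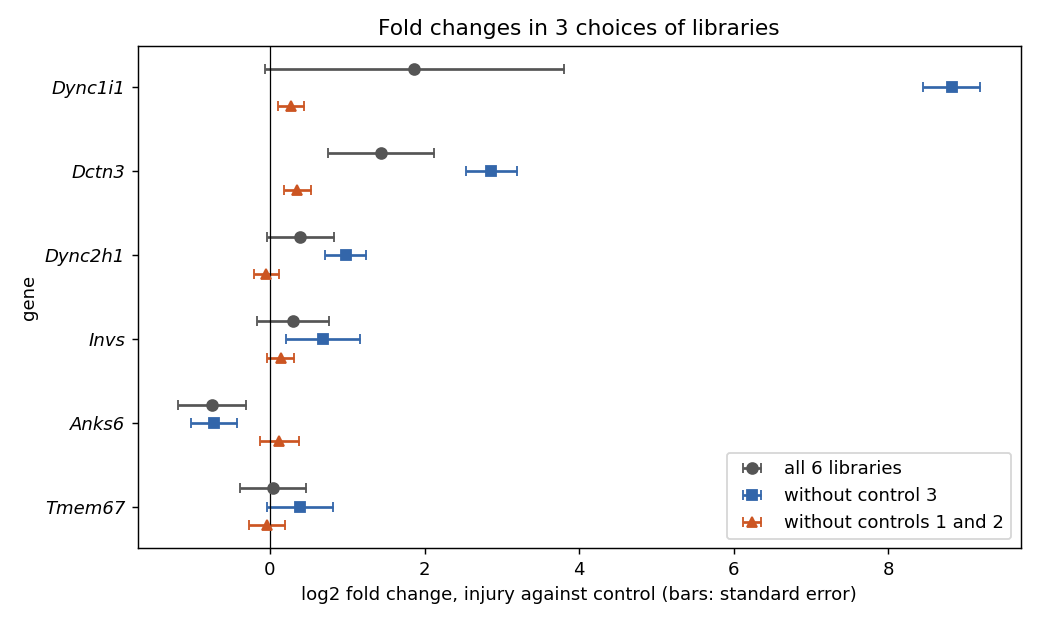
Log2 fold changes of injury over control (horizontal axis, bars are 1 standard error) from edgeR fits of all 6 libraries (grey), without control 3 (blue) and without controls 1 and 2 (orange). Dync1i1 moves from 1.87 to 8.82 without control 3 and to 0.27 without controls 1 and 2.

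Levels of different genes were compared per kilobase of the exon length in the files. In the injury libraries Dync1i1 and Dctn3 were level, at 219.7 ± 16.5 and 219 ± 9.92 CPM per kb (SD, n = 3). Dync2h1 followed at 43.4 ± 3.66 CPM per kb. Invs, Anks6 and Tmem67 came last with 6.66 ± 0.764, 6.40 ± 1.63 and 5.47 ± 1.499 CPM per kb. Their ranges over the injury libraries overlapped, though Tmem67 was the lowest of the 6 genes within each injury library. Control 3 held the same 3 steps, with 199 and 186 CPM per kb of Dync1i1 and Dctn3, 48.9 of Dync2h1, and 6.59, 6.42 and 6.12 of Invs, Anks6 and Tmem67.

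Controls 1 and 2 had other orders. In control 1 Dctn3 led with 44.3 CPM per kb, then Dync2h1 with 21.5, Anks6 with 10.2, Tmem67 with 2.68, Invs with 2.20 and Dync1i1 with 0.575. In control 2 Dync2h1 led with 43.3 CPM per kb over Dctn3 with 37.2, Anks6 with 20.9, Invs with 10.8, Tmem67 with 10.1 and Dync1i1 with 0.785. Dync1i1 was last in both, and at or near the top in the other 4 libraries.

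**Figure D3:**
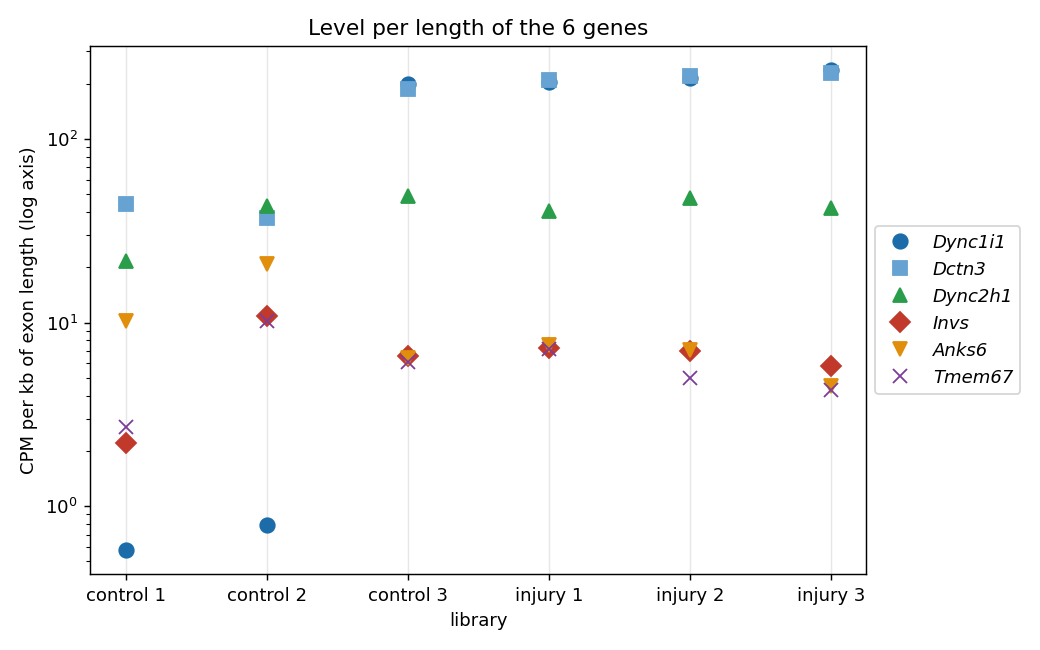
CPM per kilobase of exon length (vertical log axis) of the 6 genes in each library. Control 3 and the injury libraries share 3 steps, Dync1i1 with Dctn3, then Dync2h1, then Invs, Anks6 and Tmem67, and in controls 1 and 2 Dync1i1 falls to 0.575 and 0.785 CPM per kb.

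Ratios between 2 genes of the same library do not depend on how libraries are scaled. Per kilobase, Dync1i1 stood to Dctn3 as 0.0130 in control 1 and 0.0211 in control 2, and as 1.07 in control 3 and 0.986, 0.978 and 1.04 in injury 1, 2 and 3. The ciliary heavy chain Dync2h1 stood to Dctn3 as 0.485 and 1.16 in controls 1 and 2, 0.262 in control 3 and 0.195, 0.216 and 0.184 after injury. For Anks6 to Invs, the pair of the inversin compartment, the ratio was 4.62 and 1.93 in controls 1 and 2, 0.975 in control 3 and 1.05, 1.02 and 0.783 in the injury libraries. In all 3 ratios controls 1 and 2 lay outside the range of the other 4 libraries. Dync2h1 to Dctn3 was also higher in control 3 than in every injury library.

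Tmem67 to Invs varied least of the ratios computed, from 0.715 to 1.22 over the 6 libraries, with 1.22 and 0.937 in controls 1 and 2, 0.929 in control 3 and 0.990, 0.715 and 0.738 after injury. Anks6 to Dync2h1 was 0.472 and 0.482 in controls 1 and 2 and between 0.108 and 0.186 in the other 4 libraries. Controls 1 and 2, which differ in the CPM of both genes, thus agreed in this ratio.

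**Figure D4:**
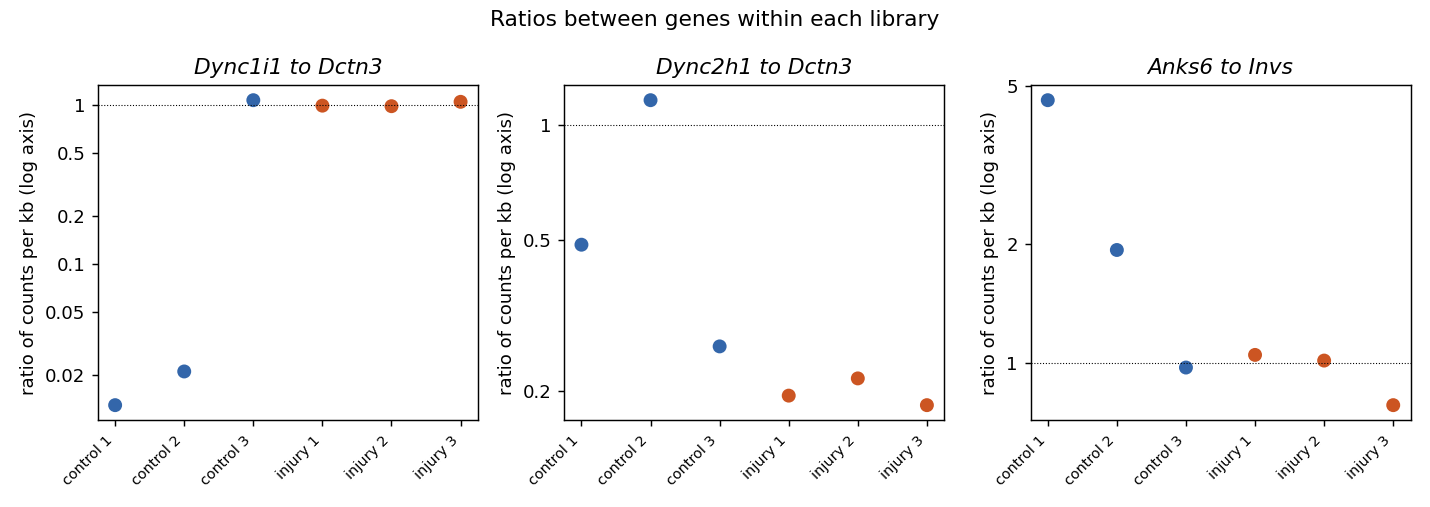
Ratio of counts per kilobase between pairs of genes (vertical log axes) in each control (blue) and injury (orange) library, with a dotted line at 1. Dync1i1 to Dctn3 lies between 0.978 and 1.07 in control 3 and the injury libraries and at 0.0130 and 0.0211 in controls 1 and 2.

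The deposited FPKM values (counts per kilobase of exon and per 1000000 of a library denominator, by the authors) used larger denominators than the counts assigned to features. Assigned counts came to 25.7% and 25.5% of the denominator in controls 1 and 2 and to between 34.4% and 41.9% in the other 4 libraries. What the denominators count is not given in the sources used here. On that scale Anks6 had an FPKM of 2.61 in control 1, 5.33 in control 2, 2.46 in control 3 and 2.61, 2.49 and 1.90 after injury, so that control 2 alone stood out. Invs had an FPKM of 0.565 in control 1 and between 2.43 and 2.76 in the other 5 libraries, so that control 1 alone stood out. Dync1i1 stayed nearly missing from controls 1 and 2, with an FPKM of 0.148 and 0.2002 there and between 70.8 and 99.8 elsewhere. Its control 3, at 76.1, then lay within the injury range, so on this scale its groups overlapped.

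Other genes of dynein transport and the cilium were read from 13 lists of 196 genes, 190 of them in the files by that name. Of these, 8 are name-stable: 1 of 11 dynactin subunits, 2 of 18 kinesin chains, 1 of 18 genes of the BBSome and ciliary traffic, 1 of 10 Hedgehog genes and 3 of 28 motile cilium genes in the files. The other 8 lists, among them the further subunits of both dyneins, intraflagellar transport and the transition zone, had 0 and could not be read. With all 6 libraries 0 of the 8 passed in either direction. Without control 3, 4 passed with higher and 1 with lower levels after injury, where 53.5% of name-stable features were called higher and 19.1% lower, so these counts are near the background. Without controls 1 and 2, 1 of the 8 passed as higher and 0 as lower, against 2.07% of name-stable features and 6.78% of all features in either direction.

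The dynactin gene and the heavy chain of kinesin were high where Dctn3 was high. For Capza2, a capping protein subunit found in dynactin, controls 1 and 2 held 332 and 252 CPM, below the 1013 CPM of control 3 and the 1015, 1182 and 1174 CPM of the injury libraries. For Kif5b, the widely expressed heavy chain of the kinesin that runs opposite to dynein, they held 715 and 486 CPM, below the 3761 CPM of control 3 and the injury values of 3696, 4633 and 4778 CPM. Both were higher without control 3, with log2 fold changes of 2.37 (SE 0.378) and 3.28 (SE 0.475) and edgeR adjusted p of 0.00218 and 0.00154. Neither passed against control 3 alone (edgeR adjusted p 0.317 for Capza2 and 0.251 for Kif5b).

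Genes of motile cilia, which also serve as the name-stable ependymal markers here, were low throughout. Dnai1, an intermediate chain of the dynein that bends motile cilia, reached 20.6 CPM in control 3 and 19.96, 25.6 and 17.2 CPM in the injury libraries, against 0.513 and 3.32 CPM in controls 1 and 2. Iqub, a protein of the radial spokes, reached 19.1 CPM in control 3 and 18.6, 12.3 and 9.64 CPM in the injury libraries, against 0.770 and 1.02 CPM in controls 1 and 2. Both were higher without control 3, by 4.01 (SE 0.601, edgeR adjusted p 0.00173) and 4.35 (SE 0.535, adjusted p 8.67e-04) on the log2 scale. Spag8 stayed at 5.61 CPM or below and did not pass (edgeR adjusted p 0.191).

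Kif24, a kinesin of centrioles that restrains cilium assembly, was the list gene that fell without control 3. Its highest values were 37.0 CPM in control 1 and 66.8 CPM in control 2, while control 3 had 19.5 CPM and the injury libraries 20.6, 19.0 and 18.4 CPM. The log2 fold change without control 3 was -0.88 (SE 0.244, edgeR adjusted p 0.0170). Topors, a ubiquitin and SUMO ligase found at the cilium base, ran from 170.2 to 246 CPM over the 6 libraries and did not pass (edgeR adjusted p 0.830).

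Smo, the Hedgehog signal transducer that acts in the primary cilium, was the list gene that passed against control 3 alone. Control 3 was its lowest library at 95.6 CPM, and the injury libraries held 144, 137 and 148 CPM. The log2 fold change was 0.70 (SE 0.175, edgeR adjusted p 0.0196), a call that rests on 1 control library. Control 1 had 133 CPM of Smo and control 2 had 199.7 CPM, so with all controls the groups overlapped.

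**Figure D5:**
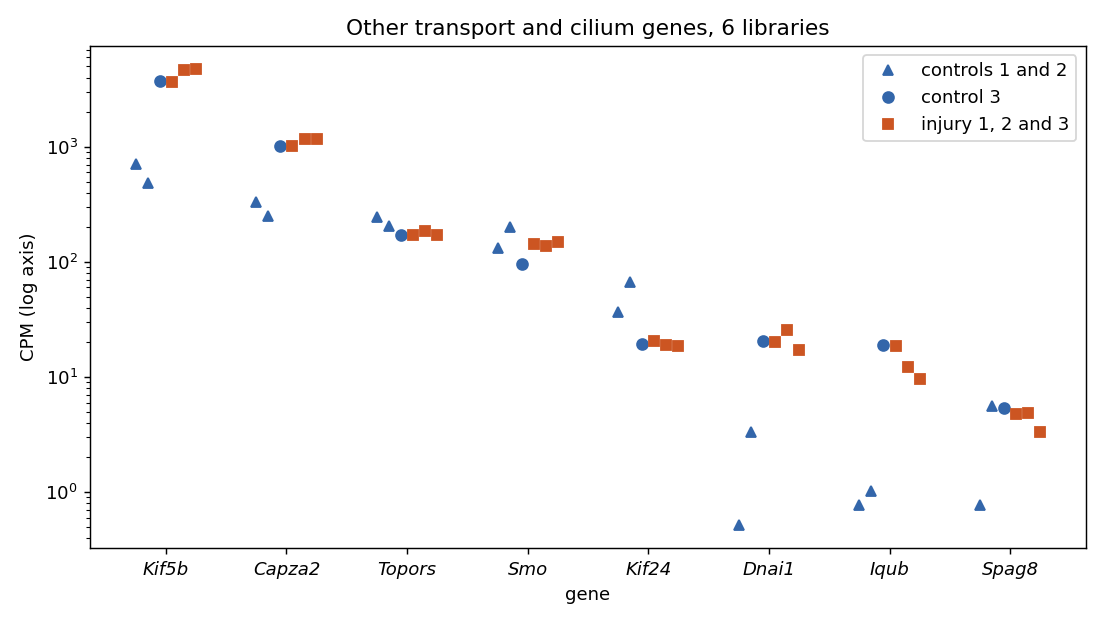
CPM (vertical log axis) of the 8 name-stable genes of transport and cilium lists in controls 1 and 2 (blue triangles), control 3 (blue circle) and the injury libraries (orange squares). Kif5b, Capza2, Dnai1 and Iqub lie lower in controls 1 and 2 than in the other 4 libraries, and Kif24 lies higher.

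For each of the 6 genes the closest patterns were sought among 390 other name-stable genes with a mean of at least 5 CPM. Likeness was the root mean square difference of the 2 log2 CPM profiles over the 6 libraries after each was centred on its mean, a description in which the split of the libraries weighs heavily. Dync2h1 was closest to Phf14 at 0.0447, a PHD finger protein whose controls held 236, 479 and 575.5 CPM and whose injury libraries held 465, 509 and 462 CPM. Calu and Jrkl came next, at 0.126 and 0.127. Dctn3 was closest to Otud6b at 0.0607, a deubiquitinase whose controls held 109, 99.96 and 459.6 CPM and whose injury libraries held 492, 525 and 539 CPM. Next came Ube2j1 (0.116) and Clta (0.136).

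Dync1i1 was closest to Clvs1 (0.136), Pou3f2 (0.217) and Necab1 (0.288), genes with 3 or fewer counts in controls 1 and 2 and 167.5 CPM or more elsewhere. Invs was closest to Fancg (0.184), Cadps2 (0.201) and Galnt12 (0.237). Anks6 was closest to Susd1 (0.193), Kif24 (0.210) and Irf5 (0.214), and Tmem67 to Reck (0.148), Kdm5d (0.271) and Cadps2 (0.303). Among the 6 genes themselves, Invs and Tmem67 were nearest to each other at 0.258, and Dync1i1 and Anks6 were farthest apart at 4.34.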

How the data were processed

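RNA sequencing counts of 6 libraries were analysed, grouped by the sample group label and numbered by their titles. The authors counted pairs of reads per gene name over exons with featureCounts 2.0.1, per the file headers. Both mates had to map, strand was ignored, and reads that map to several places or to several genes were not counted. The submitters' processing notes list Bowtie 0.12.2, mm8 and mm9, and the series text speaks of BWA and TopHat. Which of them lies behind the counts is not given in the sources used here. A deposited table of the whole series holds the same counts (0 cells differ) and the authors' FPKM values, used only as a scale to compare with. CPM is the count divided by the library total. Tests used edgeR 4.0.16 (R 4.3.3) with TMM scaling, default filterByExpr, a quasi-likelihood test and Benjamini-Hochberg adjustment over all features, with calls at 0.05. They were also run on simulated counts, in which all libraries had the same mean profile apart from the features changed. The simulation lacks the split between the controls, so it does not show how well changes can be found in these data. Standard errors come from the F statistic. Log2 CPM used a prior count of 2. Alternatives included DESeq2 1.42.0 and limma 3.58.1. Every pair of libraries differed by more than sampling noise, the closest with a chi-square of 3.09 per feature. Genes named are the 6 members, list genes that are name-stable with at least 5 CPM in 1 library, and 3 closest patterns per member (no predicted gene models). The members and lists were chosen with earlier results of these data known. Figures used Python 3.11.15 and matplotlib 3.10.9.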

Additional observations from a re-analysis of the deposited data

How the results depend on the processing

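With all 6 libraries, 0 of the 6 genes passed under RLE, upper quartile or total count scaling, both other filters, DESeq2, limma-voom, without the 10 most abundant features, among name-stable features alone, at an adjusted p of 0.01 or 0.10, and with the denominators of the deposited FPKM. Deviations of same-numbered libraries from their group means had r of 0.0643, -0.137 and 0.0543. The split between the controls weighs heavily in these deviations, so they cannot show whether same-numbered libraries were paired. With the number as a replicate block 0 passed as well. The log2 fold changes were then 6.72 for Dync1i1, 1.87 for Dctn3, 0.44 for Dync2h1 and Invs, -0.67 for Anks6 and 0.10 for Tmem67. limma-voom with sample quality weights called 3: Dync1i1 (7.92), Dctn3 (2.56) and Anks6 (-1.02), against 55.7% of all and 62.9% of name-stable features. It turned Tmem67 to -0.064. Leaving out 1 library called between 0 and 3 genes, 3 only without control 3, where 66.8% of all features were called. Over these fits the log2 fold changes ran from 1.253 to 8.82 for Dync1i1, 0.99 to 2.87 for Dctn3 and 0.18 to 0.98 for Dync2h1. They ran from -0.076 to 0.68 for Invs, -0.74 to -0.33 for Anks6 and -0.26 to 0.39 for Tmem67. limma-voom put Dync1i1 at 6.14, and fitting name-stable features alone put Anks6 at -1.67 and Dctn3 at 0.92. Some signs turned: Tmem67 to -0.14 (upper quartile) and -0.29 (total count), Invs to -0.051 (total count), and among name-stable features alone Dync2h1 to -0.34, Invs to -0.52 and Tmem67 to -0.77. Without controls 1 and 2, Dync2h1 turned to -0.049, Anks6 to 0.12 and Tmem67 to -0.039. Chosen after seeing the data, the FPKM denominators without control 3 called 3: Dync1i1 (8.85), Dctn3 (2.97) and Dync2h1 (0.96), against 62.3% of all features. Total counts without control 3 also called 3: Dync1i1 (8.29), Dctn3 (2.41) and Anks6 (-1.30), against 64.2% of all features, with Tmem67 at -0.26. Of the 8 list genes 5 passed without control 3, against 72.6% of name-stable features, and 1 without controls 1 and 2, against 2.07%. By Pearson correlation 8 of the 18 closest patterns were kept. The orders per length were the same with TMM factors, which cannot change an order within a library. The cause of these changes was not tested.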
